A study of Mus musculus with 12 samples.

Results

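A set of 10 genes whose main products are plasma proteins made by the liver was followed across sorted medullary thymic epithelial cells (mTECs) of mice. They are Alb, Ahsg, Ambp, Apoa1, Apoa2, Apoh, Fga, Fgb, Fgg and Ttr. Each was read from the probe set whose only gene symbol was that gene; all 10 members were found, each with 1 such probe set, among 22154 named genes on the array. The study put RNA of these cells on 12 single-channel Affymetrix mouse gene arrays. The groups were Aire-/- and Aire+/+ mTECs and Brg1-/- and Brg1+/+ mTECs, each as an MHC class II high fraction (mTEChi, 2 arrays a group) and an MHC class II low fraction (mTEClo, 1 array a group). All groups were labelled as C57BL/6 at 4 weeks of age and were sorted by flow cytometry for Epcam and UEA binding, with no CD45 and little Ly51 on the surface. What drives either deletion, in which cells, and whether mice were pooled are details not given in the sources used here. Nor do the labels tie the replicates to different mice, so a p-value here speaks of the spread between arrays alone, which may be technical.

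The medulla of the thymus displays proteins of peripheral organs to developing T cells. Mature mTECs, which carry high MHC class II, transcribe many such tissue-restricted genes, and the nuclear protein Aire raises the expression of a large share of them. Brg1, encoded by Smarca4, is the ATP-hydrolysing subunit of SWI/SNF, a complex that moves nucleosomes. Plasma proteins are textbook peripheral antigens: in the body they come mainly from hepatocytes, where their genes are driven by factors such as HNF4 and C/EBP. Albumin and transthyretin (Ttr) carry ligands in blood, the fibrinogen chains Fga, Fgb and Fgg assemble into the clot precursor, Apoa1 and Apoa2 are the main proteins of high-density lipoprotein, Apoh binds phospholipid, Ahsg (fetuin-A) restrains mineral deposition, and Ambp encodes the precursor of alpha-1-microglobulin and bikunin.

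The 3 fibrinogen chains are shown first because their genes lie close together on chromosome 3 and gave different readings. The other members lie on chromosomes 5 (Alb), 16 (Ahsg), 4 (Ambp), 9 (Apoa1), 1 (Apoa2), 11 (Apoh) and 18 (Ttr). RefSeq promoter sequences of assembly GRCm38.p6, covering 250 bases before and 50 bases after each start, matched 9 of the 10 members; Ttr had no entry. The 250 bases before the start are printed for the fibrinogen chains, 5′ to 3′ on the strand of the gene. Capitals mark matches, on either strand, to TTGCGCAA (C/EBP, up to 1 mismatch), to CAAAGTCCA (HNF4, up to 1 mismatch) or, with no mismatch, to the TATA box (the letters TATAAA).
Fgb (chr3:83049864-83050113, minus strand): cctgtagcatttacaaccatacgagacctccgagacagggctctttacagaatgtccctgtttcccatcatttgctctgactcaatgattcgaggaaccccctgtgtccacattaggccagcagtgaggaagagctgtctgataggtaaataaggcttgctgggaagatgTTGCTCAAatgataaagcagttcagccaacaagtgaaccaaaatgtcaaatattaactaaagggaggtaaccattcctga
Fgg (chr3:83007474-83007723, plus strand): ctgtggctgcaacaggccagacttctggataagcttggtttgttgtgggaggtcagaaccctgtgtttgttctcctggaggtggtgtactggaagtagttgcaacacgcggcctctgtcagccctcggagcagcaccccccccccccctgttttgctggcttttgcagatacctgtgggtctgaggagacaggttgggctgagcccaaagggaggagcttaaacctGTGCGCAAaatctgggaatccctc
Fga (chr3:83025903-83026152, plus strand): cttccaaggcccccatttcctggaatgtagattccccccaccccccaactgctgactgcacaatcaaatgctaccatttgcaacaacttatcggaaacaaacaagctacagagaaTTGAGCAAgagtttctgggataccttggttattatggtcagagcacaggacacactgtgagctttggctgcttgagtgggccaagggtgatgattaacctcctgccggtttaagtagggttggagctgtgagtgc

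The C/EBP letters were found in 4 of the 9 members (Ahsg and the 3 fibrinogen chains), against 5.92% of the 32851 promoters in the table. In Fgb the match began 80 bases before the start, in Fgg 24 bases before it and in Fga 135 bases before it. The HNF4 letters were found in Ahsg and in 1 of the Apoa2 starts (8.47% of all promoters), and the TATA letters in the other Apoa2 start (13.6%). In the sequences printed here no match overlapped another. Alb, Apoa1, Ambp and Apoh held none of the 3 motifs in this window. These matches describe letters, not binding, and each fibrinogen chain held the C/EBP match alone.

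The targeted genes and the arrays as a whole were examined before the members. The Aire probe set read 9.01 and 9.73 (log2 intensity) on the arrays labelled Aire-/- mTEChi, against 8.04 and 8.80 in Aire+/+ mTEChi. It was therefore the higher on the knockout arrays (0.95, SE 0.539, limma adjusted p = 1). The Smarca4 probe set read 5.88 and 5.44 in Brg1-/- mTEChi, against 6.13 and 6.89 in Brg1+/+ mTEChi (-0.85, SE 0.331, limma adjusted p = 1). Whether the probes fall inside the deleted parts is unknown, so the readings are no check on which arrays lack either gene. The median log2 intensity of an array was 5.07 to 5.32. The 10 of 12 measured medullary markers averaged 9.16 to 9.60 in mTEChi and 8.36 to 8.46 in mTEClo. Markers of other cells averaged 5.17 to 5.72 (cortical epithelium, 5 of 5), 5.48 to 5.86 (dendritic cells, macrophages and B cells, 11 of 12), 5.58 to 6.29 (fibroblasts and endothelium, 10 of 10) and 4.70 to 5.24 (erythroid cells, 2 of 6). Thymocyte markers (10 of 12) averaged 5.27 to 6.60 in mTEChi, with the highest value in Brg1-/-, and 5.0 to 5.17 in mTEClo. Some single markers of other cells were far brighter than these averages. The fibroblast marker Dcn read 9.22 to 10.92 over the arrays, and Lyz2, of the dendritic cell, macrophage and B cell list, 8.55 to 10.08. The thymocyte marker Cd3d read up to 10.12 (Brg1-/- mTEChi array 2). With no detection call used, the level that counts as background is not known. Arrays carrying the same number differed together in all 4 mTEChi groups, so a fit with the number as a block is given beside a result where it changes the call.

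**Figure D1:**
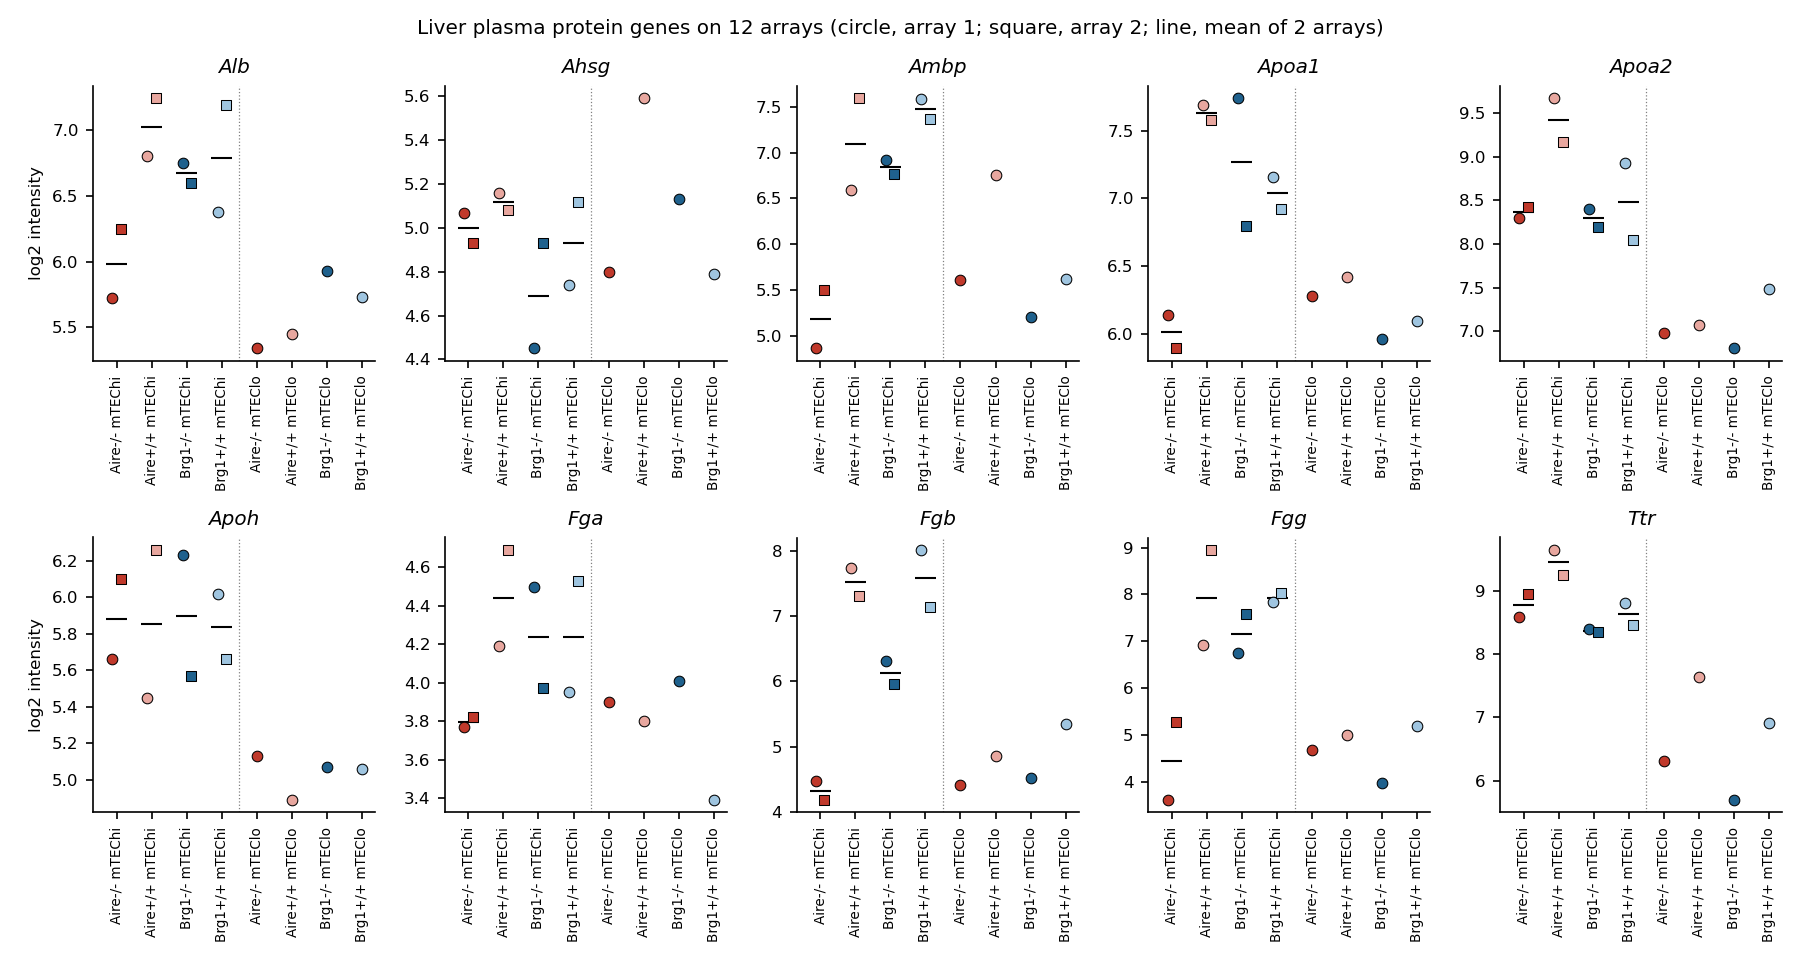
Log2 intensity (vertical axes, a scale for each gene) of the 10 liver plasma protein genes on the 12 arrays, by group; circles are array 1, squares array 2, lines the mean of 2 arrays, and the dotted line parts mTEChi from mTEClo. In Aire-/- mTEChi Fgb sits at 4.47 and 4.18, against 7.74 and 7.31 in Aire+/+ mTEChi, and close to the mTEClo arrays.

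The first comparison asked how the plasma protein genes differed between Aire-/- and Aire+/+ mTEChi. In the arrays labelled Aire-/-, Fgb fell, the only one of the 10 members to pass the test over all genes (limma, Benjamini-Hochberg adjusted p under 0.05), where 0.772% of the 22154 genes were called lower. With the replicate number as a block 4 members fell, Fgb, Fgg, Ambp and Apoa1, against 2.1% of all genes called lower in that fit. Both knockout arrays lay below both wild-type arrays for 9 of the 10 members, all but Apoh, a pattern seen in 11.6% of all genes. Ahsg is among the 9 by the rounding step of the values alone (0.01), with its nearest arrays at 5.07 and 5.08. The median difference of the 10 was -1.05 on the log2 scale, beside 0.06 for all genes.

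Among the fibrinogen chains, Fgb, the beta chain, read 4.47 and 4.18 (log2 intensity) in Aire-/- mTEChi, against 7.74 and 7.31 in Aire+/+ mTEChi. The arrays were far apart, and the fall was 3.20 on the log2 scale, or 9.19-fold (SE 0.352, n = 2 and 2, limma adjusted p = 0.00988). Fgg, the gamma chain, read 3.61 and 5.27 in Aire-/- mTEChi, against 6.92 and 8.95 in Aire+/+ mTEChi. Its difference of -3.50 was as large, but array 2 was the higher in both genotypes and the spread between arrays was wide (SE 0.746, limma adjusted p = 0.136). Within pairs of one number the Fgg differences were -3.31 and -3.68, and with the block the call was made (SE 0.233, limma adjusted p = 0.000532). Without Aire+/+ mTEChi replicate 1 the unblocked Fgg difference was -4.51 and without Aire+/+ mTEChi replicate 2 it was -2.48, the ends of its range. Fga, the alpha chain, read 3.77 and 3.82 in Aire-/- mTEChi, against 4.19 and 4.69 in Aire+/+ mTEChi, a difference of -0.65 (SE 0.325) that did not pass in either fit. The Fga probe set was dim on every array, between 3.39 and 4.69, and its mean lay at the 14.1 percentile of all genes.

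The lipoprotein genes were lower by smaller amounts. Apoa1 read 6.14 and 5.89 in Aire-/- mTEChi, against 7.69 and 7.58 in Aire+/+ mTEChi. The groups were well apart, with a difference of -1.62 (SE 0.339, limma adjusted p = 0.126, and 0.0149 with the replicate block). Apoa2 read 8.30 and 8.43 in Aire-/- mTEChi, against 9.67 and 9.17 in Aire+/+ mTEChi, a difference of -1.06 (SE 0.348, limma adjusted p = 0.547, and 0.117 with the block). It stayed bright on the arrays labelled Aire-/-, unlike Fgb and Fgg. In the wild type of the other line, Brg1+/+ mTEChi, Apoa2 read 8.93 and 8.04, and the Aire-/- mTEChi arrays lay between these values. Apoh, the phospholipid-binding protein, read 5.66 and 6.10 in Aire-/- mTEChi, against 5.45 and 6.26 in Aire+/+ mTEChi, where the groups overlapped (0.03, SE 0.377).

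Of the carrier and inhibitor genes, Ambp read 4.86 and 5.50 in Aire-/- mTEChi, against 6.59 and 7.59 in Aire+/+ mTEChi. The difference was -1.91 (SE 0.382, limma adjusted p = 0.108, and 0.00387 with the block). Alb read 5.72 and 6.25 in Aire-/- mTEChi, against 6.80 and 7.24 in Aire+/+ mTEChi, a difference of -1.04 (SE 0.353) that did not pass in either fit. Ttr, the thyroxine carrier, read 8.59 and 8.95 in Aire-/- mTEChi, against 9.64 and 9.25 in Aire+/+ mTEChi. Its difference of -0.68 (SE 0.273) also did not pass. Ahsg read 5.07 and 4.93 in Aire-/- mTEChi, against 5.16 and 5.08 in Aire+/+ mTEChi, and varied by only 1.14 over all 12 arrays.

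The Fgb call was lost when certain arrays were left out. With Aire+/+ mTEChi replicate 1 removed its limma adjusted p was 0.0929 (difference -2.99). Without Aire-/- mTEChi replicate 1 it was 0.0624 (-3.35), and without Aire-/- mTEChi replicate 2 it was 0.0912 (-3.06). Markers of fibroblasts and endothelium averaged 5.96 to 5.97 in Aire-/- mTEChi, against 5.67 to 5.75 in Aire+/+ mTEChi. With the block 1 of these 10 markers was called, the fibroblast gene Lum, as higher (1.385, limma adjusted p = 0.0366). Thymocyte markers averaged 5.40 to 5.98, against 5.27 to 6.13. The part of any of these cells in the members' differences was not tested. In these bulk samples fewer cells that express a gene and less RNA per cell cannot be told apart.

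The second comparison asked the same of Brg1 in mTEChi. No member passed the test, with or without the replicate block, where limma called 0 of the 22154 genes (0.0%) and 301 had an unadjusted p under 0.05 (1289 with the block). Fgb was the single member with an unadjusted p under 0.05 (3 with the block: Fgb, Fgg and Ambp). Both knockout arrays lay below both wild-type arrays for 4 of the 10 members, Fgb, Fgg, Ambp and Ttr, against 9.62% of all genes. The median difference of the 10 was -0.22, beside 0.00 for all genes.

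Fgb read 6.31 and 5.96 in Brg1-/- mTEChi, against 8.02 and 7.15 in Brg1+/+ mTEChi. The difference was -1.45 (SE 0.352, limma adjusted p = 1, and 0.668 with the block), with -1.71 and -1.19 within pairs of one number. Fgg read 6.75 and 7.58 in Brg1-/- mTEChi, against 7.83 and 8.04 in Brg1+/+ mTEChi (-0.77, SE 0.746). The knockout arrays were the lower for both chains, by amounts that did not pass. Ambp read 6.92 and 6.77 in Brg1-/- mTEChi, against 7.58 and 7.37 in Brg1+/+ mTEChi (-0.63, SE 0.382). Apoa1 read 7.74 and 6.80 in Brg1-/- mTEChi, against 7.16 and 6.92 in Brg1+/+ mTEChi, with overlapping groups. The other 6 members differed by between -0.27 (Ttr) and 0.06 (Apoh). Thymocyte markers averaged 5.65 to 6.60 in Brg1-/- mTEChi, against 5.72 to 5.77 in Brg1+/+ mTEChi, and their part in these values was not tested.

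**Figure D2:**
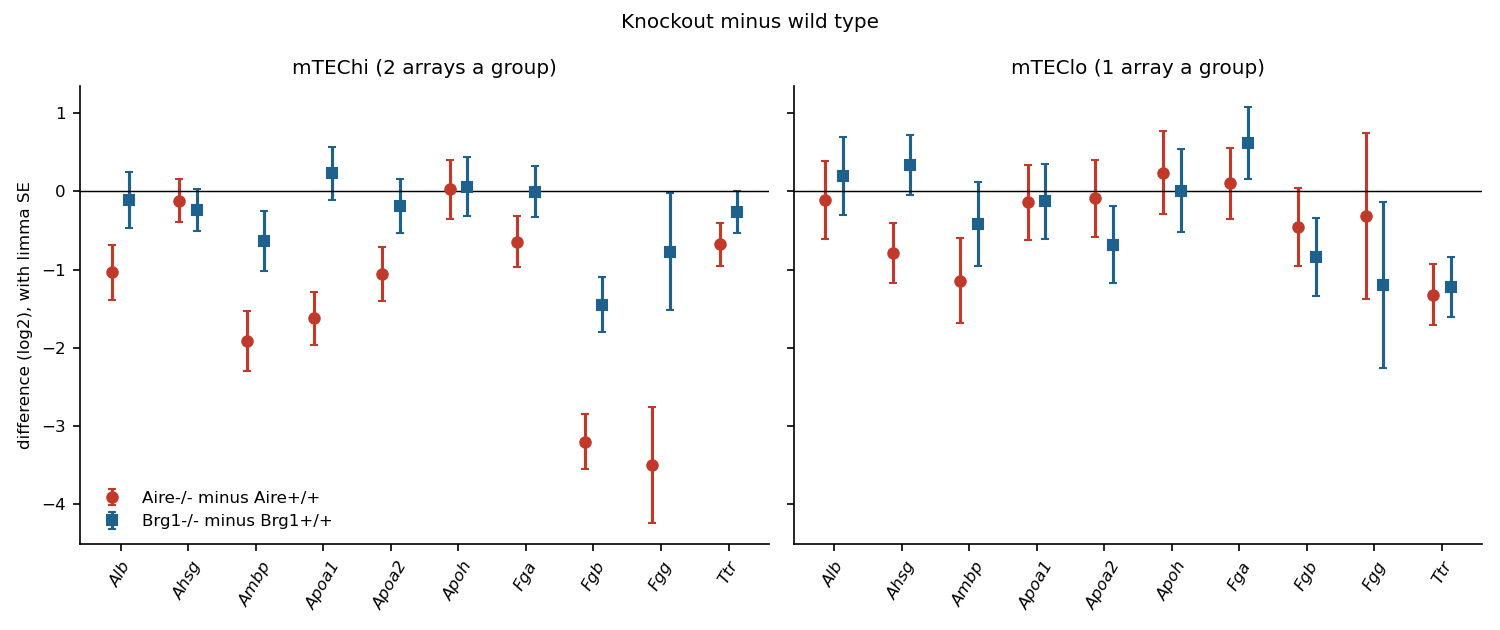
Knockout minus wild type (log2, vertical axis) for each of the 10 genes, in mTEChi on the left and mTEClo on the right; circles are Aire, squares Brg1, and bars the limma standard error. Fgb at -3.20 and Fgg at -3.50 lie lowest for Aire in mTEChi, and Fgb at -1.45 lies lowest for Brg1.

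The difference between the knockouts was tested directly as the Aire effect minus the Brg1 effect in mTEChi. The estimate was below 0 for 9 of the 10 members, with a median of -0.90 beside 0.05 for all genes. None passed without the block, where limma called 0.135% of all genes. At an unadjusted p under 0.05 there were 4 members (Fgg, Apoa1, Fgb and Ambp), among 815 of the 22154 genes. With the block Fgg passed (-2.73, SE 0.33, limma adjusted p = 0.0158), against 0.844% of all genes in that direction. Leaving out 1 mTEChi array in the fit without the block moved this Fgg estimate between -3.74 (without Aire+/+ replicate 1) and -1.71 (without Aire+/+ replicate 2), and it did not pass in any of them. Apoa1 gave -1.85 (limma adjusted p = 0.0641 with the block) and Fgb gave -1.75 (limma adjusted p = 0.0585 with the block). For Fgb the knockouts were therefore not shown to differ.

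In mTEClo each group had 1 array, whose spread was taken to be that of the mTEChi groups. Ttr was the member with the largest difference in both lines. It read 6.32 in Aire-/- mTEClo, against 7.64 in Aire+/+ mTEClo (-1.32, SE 0.386, limma adjusted p = 1). It read 5.70 in Brg1-/- mTEClo, against 6.92 in Brg1+/+ mTEClo (-1.22, SE 0.386, limma adjusted p = 1). These are 2.50-fold and 2.33-fold lower values of single arrays, and neither passed the test.

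At least 2-fold lower in Aire-/- mTEClo were 2 of the 10 members, Ttr and Ambp, against 1.57% of all genes. Ambp read 5.61 in Aire-/- mTEClo, against 6.75 in Aire+/+ mTEClo. In Brg1-/- mTEClo the count was also 2 of the 10, Ttr and Fgg, against 1.27% of all genes. Fgg read 3.98 in Brg1-/- mTEClo, against 5.18 in Brg1+/+ mTEClo. With limma 0 members passed for Aire or Brg1 in mTEClo, in either fit, where 0.0% of all genes were called (0.0135% for Aire with the block). At an unadjusted p under 0.05 there was 1 member in each line, Ttr, and 3 with the block, among 298 genes for Aire (982 with the block) and 382 for Brg1 (1172 with the block).

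The third comparison described the members in mTEChi against mTEClo of the wild types, averaged over both lines. Fgb, Ttr and Apoa2 were higher in mTEChi, where limma called 1.93% of all genes higher, and 8 members were higher with the replicate block (4.43% of all genes), all but Ahsg and Fga. All 4 mTEChi arrays lay above both mTEClo arrays for 8 of the 10 members, all but Ahsg and Ambp, against 11.4% of all genes. The median difference of the 10 was 1.21, beside -0.10 for all genes. All mTEClo arrays carry the number 1, so the difference between numbers enters these values unless the block removes it.

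Fgb read 7.74, 7.31, 8.02 and 7.15 in Aire+/+ and Brg1+/+ mTEChi, against 4.86 and 5.35 in the same genotypes of mTEClo. That was a difference of 2.45 (SE 0.305, n = 4 and 2, limma adjusted p = 0.0102). Ttr read 9.64, 9.25, 8.81 and 8.46 in mTEChi, against 7.64 and 6.92 in mTEClo (1.76, SE 0.236, limma adjusted p = 0.012). Neither gene overlapped between the fractions, and Ttr was bright in both. Apoa2 read 9.67, 9.17, 8.93 and 8.04 in mTEChi, against 7.07 and 7.48 in mTEClo (1.68, SE 0.301, limma adjusted p = 0.0341). The Apoa2 call was lost without 6 of the 8 mTEChi arrays in turn, with limma adjusted p up to 0.0908 (without Aire+/+ mTEChi replicate 1); it was kept without either Brg1+/+ mTEChi array.

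Fgg had the largest difference of the 10 without the block (with it Fgb did, at 2.69), 2.85 with a wide spread (SE 0.646, limma adjusted p = 0.0795, and 2.25 with an adjusted p of 0.00162 with the block). It read 6.92, 8.95, 7.83 and 8.04 in mTEChi, against 5.0 and 5.18 in mTEClo. Without Aire+/+ mTEChi replicate 1 the Fgg call was made (3.35, limma adjusted p = 0.0394). The other members past the test with the block were Alb (1.11, limma adjusted p = 0.0417), Apoa1 (1.28, adjusted p = 0.0157), Ambp (0.94, adjusted p = 0.0295) and Apoh (0.84, adjusted p = 0.0495). Ahsg, at -0.17, was the member that did not lean towards mTEChi. The thymocyte markers averaged 5.27 to 6.13 in the wild-type mTEChi arrays and 5.0 to 5.10 in wild-type mTEClo. Fibroblast and endothelium markers averaged 5.58 to 5.75 in wild-type mTEChi and 6.06 to 6.13 in wild-type mTEClo, without overlap. With the block limma called the fibroblast marker Lum (-1.53), the leukocyte marker Ptprc (-0.97) and the cortical marker Cxcl12 (-1.1) lower in mTEChi. The B cell marker Ms4a1 (1.34) was called higher. Of the medullary markers, Krt14 (-1.1) was called lower and Cd40, Cd80 and Cd86 higher. The part of other cells in the differences was not tested.

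The same contrast within each knockout was added after the values were seen, and rests on 2 mTEChi arrays and 1 mTEClo array each. On the arrays labelled Aire-/- the members split. Ttr read 8.59 and 8.95 in Aire-/- mTEChi, against 6.32 in Aire-/- mTEClo, a difference of 2.45 (SE 0.334, limma adjusted p = 0.0388, and 0.0133 with the block). It was the only one of the 10 members past the test in either fit, where 0.384% of all genes were called higher (1.47% with the block). Apoa2 read 8.30 and 8.43 in Aire-/- mTEChi, against 6.98 in Aire-/- mTEClo (1.39, SE 0.426, limma adjusted p = 0.401, and 0.0901 with the block). Both genes were thus higher on the mTEChi arrays labelled Aire-/-, though Apoa2 did not pass.

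Fgb read 4.47 and 4.18 in Aire-/- mTEChi, against 4.41 in Aire-/- mTEClo, so the mTEClo array lay between the mTEChi arrays. Fgg read 3.61 and 5.27 in Aire-/- mTEChi, against 4.68 in Aire-/- mTEClo. Apoa1 read 6.14 and 5.89 in Aire-/- mTEChi, against 6.28 in Aire-/- mTEClo, and Ambp read 4.86 and 5.50, against 5.61. For Apoa1 and Ambp both mTEChi arrays lay below the mTEClo array, a pattern whose share of all genes was not counted. The differences were -0.265 (SE 0.416) for Apoa1 and -0.43 (SE 0.468) for Ambp. In this contrast 59.5% of all genes had an estimate below 0. Both mTEChi arrays lay above the mTEClo array for 5 of the 10 members, Alb, Ahsg, Apoa2, Apoh and Ttr, against 25.6% of all genes.

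Whether the Aire effect differed between the fractions was tested as the effect in mTEChi minus that in mTEClo. It passed with the block for Fgb (-2.75, SE 0.372, limma adjusted p = 0.0491) and Fgg (-3.17, SE 0.404, limma adjusted p = 0.0406), where 0.271% of all genes were called in that direction. Without the block no member passed (limma adjusted p = 0.592 for Fgb and 1 for Fgg), with 3 members and 547 genes at an unadjusted p under 0.05 and 0.0% of all genes called. For Ttr the estimate was 0.65 (SE 0.473, limma adjusted p = 1), and for Apoa2 it was -0.97 (SE 0.603, limma adjusted p = 1).

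In Brg1-/- cells Ttr was again the only member past the test without the block, where 0.542% of all genes were called higher. It read 8.40 and 8.34 in Brg1-/- mTEChi, against 5.70 in Brg1-/- mTEClo (2.67, SE 0.334, limma adjusted p = 0.0294). With the block 6 members were higher in mTEChi, Ttr, Fgg, Fgb, Apoa2, Ambp and Apoa1, against 2.16% of all genes. Fgb read 6.31 and 5.96 in Brg1-/- mTEChi, against 4.51 in Brg1-/- mTEClo (1.63, SE 0.431, limma adjusted p = 0.291, and 0.0182 with the block). Both mTEChi arrays lay above the mTEClo array for 8 of the 10 members, against 26.2% of all genes. The Brg1 effect did not pass as different between the fractions for any member, in either fit (limma called 0.0% of all genes, with 0 members and 296 genes at an unadjusted p under 0.05 without the block and 1133 genes with it). The Ttr calls within the knockouts were fragile: without any single mTEChi array the limma adjusted p for Aire-/- lay between 0.0542 and 0.205, and for Brg1-/- between 0.039 and 0.181, under 0.05 only without either Brg1+/+ array.

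**Figure D3:**
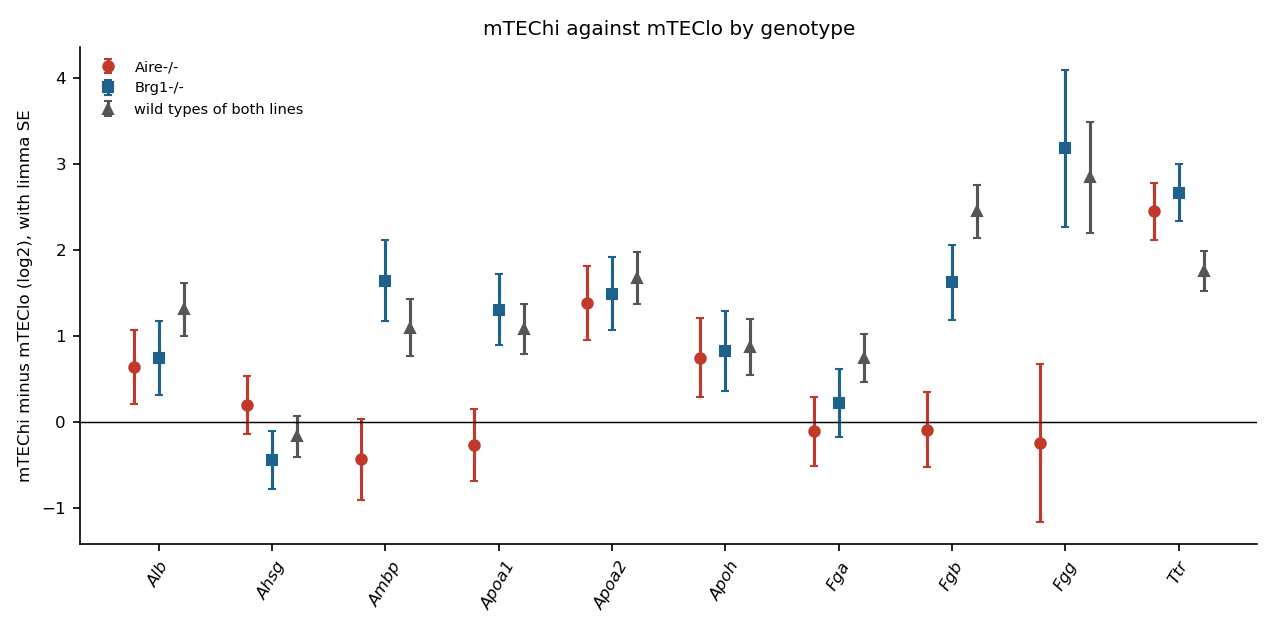
Difference between mTEChi and mTEClo (log2, vertical axis) for each of the 10 genes in Aire-/- cells (circles), Brg1-/- cells (squares) and the wild types of both lines (triangles), with the limma standard error. Ttr lies at 2.45 in Aire-/-, 2.67 in Brg1-/- and 1.76 in wild-type cells, while Fgb lies at -0.09 in Aire-/-, 1.63 in Brg1-/- and 2.45 in wild-type cells.

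Over the groups, Fgb was at its highest in Brg1+/+ mTEChi (7.59 ± 0.62, SD, n = 2) and Aire+/+ mTEChi (7.53 ± 0.30, SD, n = 2), which overlapped. Brg1-/- mTEChi followed (6.14 ± 0.25, SD, n = 2), then the mTEClo arrays (4.41 to 5.35), with Aire-/- mTEChi (4.33 ± 0.21, SD, n = 2) at their lower end. Ttr kept another order. It was at 9.45 ± 0.28 in Aire+/+ mTEChi, 8.77 ± 0.25 in Aire-/- mTEChi, 8.64 ± 0.25 in Brg1+/+ mTEChi and 8.37 ± 0.04 in Brg1-/- mTEChi (SD, n = 2 each), all above the 5.70 to 7.64 of the mTEClo arrays. The Aire-/- and Brg1+/+ arrays overlapped for Ttr.

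The wider liver programme was read from 6 further lists, chosen with earlier results of these data known. Without the block Orm2, an acid glycoprotein of the acute phase, was the single gene of these lists called lower in Aire-/- mTEChi (6 with the block). It read 5.01 and 6.20 in Aire-/- mTEChi, against 8.87 and 8.84 in Aire+/+ mTEChi (-3.25, SE 0.463, limma adjusted p = 0.0286). In Brg1-/- mTEChi it read 7.58 and 8.59, against 8.24 and 7.99 in Brg1+/+ mTEChi. Orm1 and Orm2 are close relatives, and their probe sets may cross-read.

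Of the 19 measured carrier, inhibitor and acute phase genes 1 fell and 0 rose on the Aire-/- mTEChi arrays, with a list median of -0.55. Over all genes limma called 0.772% lower, and 2.1% with the block. With the block 4 of the list fell: Orm2, and Hp (-1.76), Lect2 (-1.36) and Orm1 (-1.03), named here after their values were seen. Of the 10 measured other apolipoproteins 0 passed (median -0.36), with Apof the furthest at -1.47 (limma adjusted p = 0.132, and 0.0101 with the block). Of the 11 complement genes 0 passed (median -0.06), with Mbl2 the furthest at -1.53 (limma adjusted p = 0.101, and 0.029 with the block). Of the 16 coagulation and fibrinolysis factors 0 passed in either fit, with a median of -0.10 and the whole list between -0.90 (Kng1) and 0.18. No coagulation factor came near the size of the Fgb difference. All of them read below Fgb (7.74 and 7.31) in Aire+/+ mTEChi, from Hrg (3.69 and 2.82) up to F10 (6.21 and 6.54). A fall of the Fgb size (3.20 on the log2 scale) had limited room to show anywhere in this list, and least in the dimmest genes.

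Of the 15 hepatocyte enzymes 0 passed (median -0.12), and with the block 1 rose, the histidine ammonia-lyase Hal (1.50, limma adjusted p = 0.0238), chosen after its value was seen. In that fit 66 of the 22154 genes were called higher. Of the 12 liver transcription factors 0 passed in either fit, with a median of 0.06, the same as that of all genes. The nuclear receptor Hnf4a read 5.71 and 5.64 in Aire-/- mTEChi, against 5.33 and 5.56 in Aire+/+ mTEChi. Its relative Hnf4g read 6.25 and 6.14 in Aire-/- mTEChi, against 7.42 and 6.50 in Aire+/+ mTEChi (-0.77, SE 0.337, limma adjusted p = 0.966). For Brg1 in mTEChi, limma called 0 genes of the 6 lists in either fit, and list medians ran from -0.26 (hepatocyte enzymes) to 0.11 (complement).

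In wild-type mTEChi against mTEClo, 14 genes of the 6 lists passed with the block, 12 higher in mTEChi and 2 lower. In that fit limma called 4.43% of all genes higher, and 552 of the 22154 genes lower. Without the block 5 passed, 5 higher and 0 lower, where 1.93% of all genes were called higher. The 5 were the lipoprotein gene Apoa4 (2.15, limma adjusted p = 0.0382), Orm2 (2.06, adjusted p = 0.0453), the thyroxine-binding globulin Serpina7 (1.93, adjusted p = 0.0105), the tyrosine catabolism enzyme Hgd (1.82, adjusted p = 0.00882) and Itih3 (1.22, adjusted p = 0.0353), a heavy chain that bikunin joins. Serpina7 and Hgd did not read lower on the Aire-/- mTEChi arrays. Serpina7 read 9.10 and 8.94 in Aire-/- mTEChi, against 8.91 and 8.59 in Aire+/+ mTEChi, and Hgd read 6.50 and 6.11, against 5.92 and 5.89. The other genes of the 5 were lower on the Aire-/- mTEChi arrays. Orm2 is given above. Apoa4 read 7.65 and 8.49, against 8.56 and 9.15, and Itih3 read 5.53 and 5.29, against 6.17 and 5.88. Neither Apoa4 nor Itih3 passed in either fit. In Brg1-/- mTEChi Serpina7 read 7.81 and 7.26, against 8.71 and 8.51 in Brg1+/+ mTEChi (-1.075, SE 0.28), and did not pass. Among those past the test only with the block, Hnf4g (1.23, limma adjusted p = 0.0222), Apoc2 (1.94, adjusted p = 0.0024), Apoc3 (1.46, adjusted p = 0.00748), Kng1 (1.51, adjusted p = 0.00912), Hal (1.71, adjusted p = 0.00531), Tdo2 (1.34, adjusted p = 0.014) and Mbl2 (1.11, adjusted p = 0.0377) were higher. The acute phase protein Crp (-1.60, adjusted p = 0.00912) and the tyrosine catabolism enzyme Fah (-0.83, adjusted p = 0.0473) were lower.

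**Figure D4:**
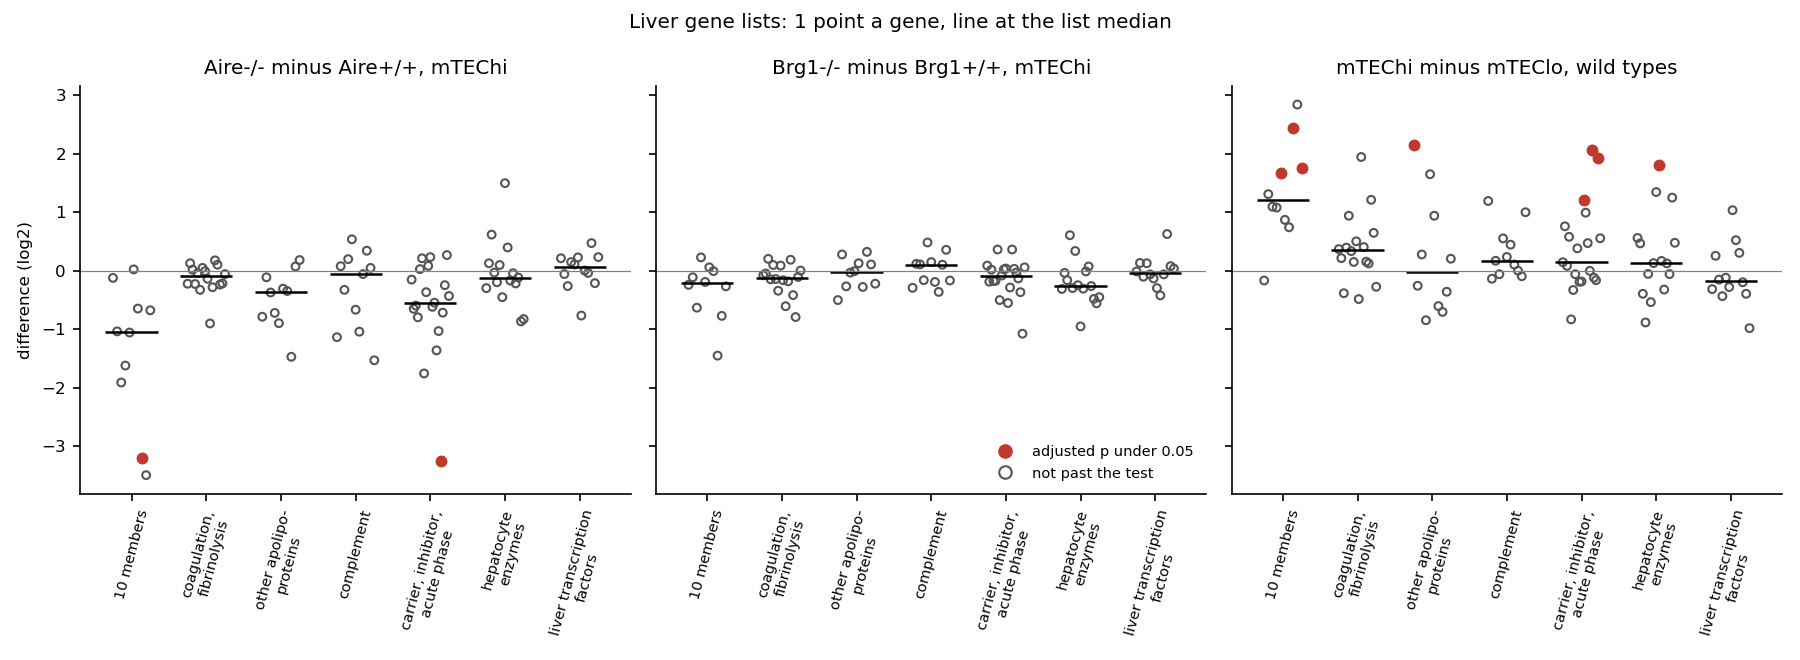
Differences (log2, vertical axis) of the 10 genes and of 6 further liver gene lists, 1 point a gene and a line at each median, for Aire and Brg1 loss in mTEChi and for mTEChi against mTEClo in wild types; filled points passed the limma test. For Aire loss the 10 genes have a median of -1.05 and the coagulation list one of -0.10. The coagulation genes all read below Fgb in Aire+/+ mTEChi.

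The genes whose profile was most like the mean profile of the 10 members were Igfbp6 (Pearson r = 0.978 over the 12 arrays), Oosp1 (0.971), Fabp2 (0.971), Csn1s1 (0.968) and Lcn3 (0.964). Each member was centred but not scaled. Members with a wide range over the arrays, such as Fgg (5.34), Ttr (3.94) and Fgb (3.84), therefore weigh more in the mean than Ahsg (1.14). The 12 arrays share groups and array numbers, so these correlations describe the groups as much as single arrays. They were picked for a profile that includes the Aire-/- arrays, so their differences in Aire-/- against Aire+/+ mTEChi follow from the choice and are given as a description, with no test. These were -4.43 for Oosp1, an oocyte-secreted protein gene, -3.11 for Lcn3, a lipocalin, -2.53 for Csn1s1, a milk casein, -2.50 for Fabp2, the intestinal fatty acid-binding protein, and -2.20 for Igfbp6, which binds insulin-like growth factors.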

How the data were processed

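RNA of sorted mTECs was measured on 12 arrays in 8 groups. The deposited table gives 1 linear intensity for each of 33732 probe sets and array. Named in the submitters' processing notes are RMA and the programs Expression Console and Transcriptome Analysis Console of Affymetrix, without versions or roles. Whether RMA was run over all arrays at once is unstated. Background compresses the fold of a dim gene. Log2 of the authors' intensities was taken without a pseudocount and not normalized again; each deposited value equals 2 raised to a number with 2 decimals. By the platform annotation 23491 probe sets had 1 gene symbol, 1811 several and 8430 none; the brightest probe set by mean was kept per gene, leaving 22154 genes.

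Fits used R 4.3.3 and limma 3.58.1 (lmFit, eBayes): 1 model of 8 group means over all 12 arrays, 4 residual degrees of freedom, two-sided, Benjamini-Hochberg adjusted p under 0.05 over all genes, with 1 array standing for each mTEClo group. SE is limma's moderated standard error. The fit without the block was tested on simulated data for Aire loss in mTEChi alone, with no shift between array numbers simulated. The block fit and the comparisons with mTEClo were not tested in this way. The members, lists and comparisons were chosen with earlier results of these data known. The text names all members, Aire, Smarca4, the transcription factors it needs, up to 4 genes a list with the smallest adjusted p or the furthest gene where none passed, and the 5 genes most like the members.

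The labels number the arrays 1 and 2 in each group. Differences between array 1 and array 2 correlated between all pairs of the 4 mTEChi groups (r from 0.552 to 0.657 across genes). The numbers thus mark a shift common to these groups. Groups of different lines correlated as much (0.605 to 0.647) as those of one line. A knockout and a wild-type array of one number are therefore not shown to be a matched pair. What the numbers stand for is unstated. The block fit takes the number within each line as a covariate and leaves 2 residual degrees of freedom. Promoter sequences and starts are RefSeq's, assembly GRCm38.p6; a further motif is not reported here. Other alternatives were median centring, quantile normalization, a filter on dim genes, the mean of probe sets, an intensity trend, single lines and leaving out each mTEChi array. The number of arrays limits the precision.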

Additional observations from a re-analysis of the deposited data

Results flagged for a closer look

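Differences between effects stood out for the fibrinogen chains, each only with the replicate number as a block. The Aire effect on Fgg in mTEChi lay below the Brg1 effect by -2.73 on the log2 scale (limma adjusted p = 0.0158; 1 without the block, where leaving out 1 array gave -3.74 to -1.71). The Aire effect in mTEChi lay below that in mTEClo by -2.75 for Fgb (limma adjusted p = 0.0491; 0.592 without the block) and by -3.17 for Fgg (limma adjusted p = 0.0406; 1 without the block, where leaving out 1 array gave -4.19 to -2.16). The last comparison holds 1 array in each mTEClo group. No group had enough arrays for a search for a single array far from the rest.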

How the results depend on the processing

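The limits lie in the number of arrays: 2 in each mTEChi group and 1 in each mTEClo group. No member's difference that passed the test changed direction under any alternative, and the differences that did change direction were all short of the threshold. No cause of these changes was tested. Under the alternatives that keep all arrays, 634 of the 660 values of members' differences kept direction and side of the threshold, 16 gained the call, 2 lost it and 8 changed sign. With an mTEChi array left out, 752 of 800 kept both, 1 gained the call, 23 lost it and 24 changed sign; where the array left out is in neither group compared, the difference itself cannot change.

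With the replicate block the members called numbered 4 for Aire loss in mTEChi (531 genes in all, against 176), 8 for wild-type mTEChi against mTEClo (1534 genes, against 567), 1 for the Aire effect minus the Brg1 effect (201 genes, against 30), 2 for the Aire effect in mTEChi minus mTEClo (63 genes, against 0) and 6 for Brg1-/- mTEChi against mTEClo (615 genes, against 129). The block called 505 genes for Aire-/- mTEChi against mTEClo (104 without it) and 3 for Aire loss in mTEClo; quantile normalization called 1 there. Centring arrays on their medians gave 48 genes for the Aire effect minus the Brg1 effect, and for the wild types 467 genes higher and 119 lower, against 427 and 140. With only the line compared, 0 members and 0 genes were called for Aire-/- mTEChi against mTEClo, and 0 members and 30 genes for Brg1-/-. That setting was not run for comparisons over both lines, and leaving out a lone mTEClo array leaves no contrast.

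Leaving out each mTEChi array in turn gave 0 to 1 members and 53 to 184 genes for Aire loss in mTEChi, 0 to 1 genes for Brg1 loss in mTEChi, 307 to 470 genes for the wild types, 4 to 28 genes for the Aire effect minus the Brg1 effect, 0 members and 0 to 79 genes for Aire-/- mTEChi against mTEClo, and 0 to 1 members and 0 to 91 genes for Brg1-/- mTEChi against mTEClo.

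Differences near 0 changed sign. With quantile normalization Fga was at 0.0058 for Brg1 loss in mTEChi, Apoa2 at 0.02 for Aire loss in mTEClo, and in Aire-/- mTEChi against mTEClo Fga was at 0.0367 and Fgb at 0.0637. With centring Apoh was at -0.005 for the Brg1 effect in mTEChi minus mTEClo, and in Aire-/- mTEChi against mTEClo Fga was at 0.015 and Fgb at 0.035, with Fgb at 0.095 under the block. With arrays left out, Apoh ran from -0.38 to 0.43 for Aire loss in mTEChi, and for Brg1 loss in mTEChi Alb ran from -0.515 to 0.295, Apoa1 from -0.24 to 0.70, Apoa2 from -0.635 to 0.255, Apoh from -0.27 to 0.39 and Fga from -0.295 to 0.285. For the Aire effect minus the Brg1 effect Ahsg ran from -0.12 to 0.36 and Apoh from -0.44 to 0.37. For the Aire effect in mTEChi minus mTEClo Apoh ran from -0.62 to 0.19, and for the Brg1 effect Alb ran from -0.715 to 0.095, Apoa1 from -0.11 to 0.83 and Apoh from -0.28 to 0.38. In Aire-/- mTEChi against mTEClo Fgb ran from -0.23 to 0.06 and Fgg from -1.07 to 0.59, and in Brg1-/- Fga ran from -0.04 to 0.49.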
